A study of Mus musculus with 12 samples.

Results

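The comparison described here set library 3 of each induced group against libraries 1 and 2 of the same group, in 9 of the 12 RNA sequencing libraries of the series. The split and its members were chosen by measured values: in an earlier reading of the same counts, library 3 stood out in every induced group by weaker expression of adipocyte genes. A gene counted as a member when its level in library 3 lay below both other libraries, or above both, in all 3 induced groups, and when the fitted difference was at least 1.5-fold. By this rule 1124 of the 14545 genes tested were lower in library 3 (7.73%) and 683 were higher (4.7%), so 1807 genes carry the description. Because these differences chose the genes, they are given as a description with no test.

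The cells were mouse 3T3-L1, an established fibroblast-like preadipocyte line, harvested on day 6. The 4 groups had 3 libraries each: untreated cells, cells given the adipogenic mixture DMI, and cells given DMI together with luteolin or with quercetin, which are plant flavonoids. The mixture held 0.5 mM IBMX, 1 uM dexamethasone and 10 ug/ml insulin and was used until day 2. The labels carry the same treatment text on all samples, untreated ones included, and give no dose for either flavonoid. They also do not say whether the libraries of a group came from separate cultures, nor what a library number marks, so every p-value below measures only the spread between these libraries. A cloned line in plastic dishes holds neither the blood vessels nor the immune cells of fat tissue.

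Preadipocytes turn into adipocytes through a cascade in which C/EBP beta and C/EBP delta act early and switch on Pparg and Cebpa, which then hold each other active and turn on the genes for fatty acid uptake, triglyceride storage and lipolysis. Mitochondrial enzymes for fatty acid, pyruvate and branched-chain amino acid oxidation increase along with lipid filling. In the same course the cells lose much of the fibroblast programme, which includes fibronectin, fibrillar collagens, contractile proteins and the preadipocyte factor Dlk1.

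Counts per library ran from 14522182 to 19436796. Library 3 had the lowest total of its group with luteolin (14522182) and with quercetin (16833837), and lay between the other libraries with DMI (15847148). It also had the fewest genes with a count in each induced group, at 20620 with DMI, 20295 with luteolin and 19855 with quercetin. The differences of quercetin library 3 from quercetin libraries 1 and 2 followed gene length (Pearson r = 0.385 over 10600 genes with a mean of at least 5 CPM, counts scaled to a common library size) and GC content (r = -0.565 over 10590 genes). The same correlations were 0.0502 and 0.026 in the DMI group, -0.0261 and 0.192 with luteolin, and -0.108 and -0.00614 in untreated cells. Counts of mitochondrially encoded genes made up 4.65% of quercetin library 3, against 3.29% and 3.92% in quercetin libraries 1 and 2, while library 3 held the smaller share in the DMI group (2.87% against 4.72% and 4.28%) and with luteolin (2.91% against 4.41% and 4.73%). Quercetin libraries 1 and 2 also differed more from each other than libraries 1 and 2 of the other groups, with a chi-square per gene of 26.1 against 2.78 to 7.62. Genes up to 1906 bases held 12.4%, 14.4% and 11.98% of counts in quercetin libraries 1, 2 and 3, so library 2 had the largest share of the 12 libraries and library 3 lay within the induced range. The nuclear RNA Malat1 had 1351, 407 and 517 CPM there. Values are therefore given for each group. With the length and GC trends of each library taken out, an alternative chosen after seeing the data, 936 of the 1124 lower members and 531 of the 683 higher members still met the rule.

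**Figure D1:**
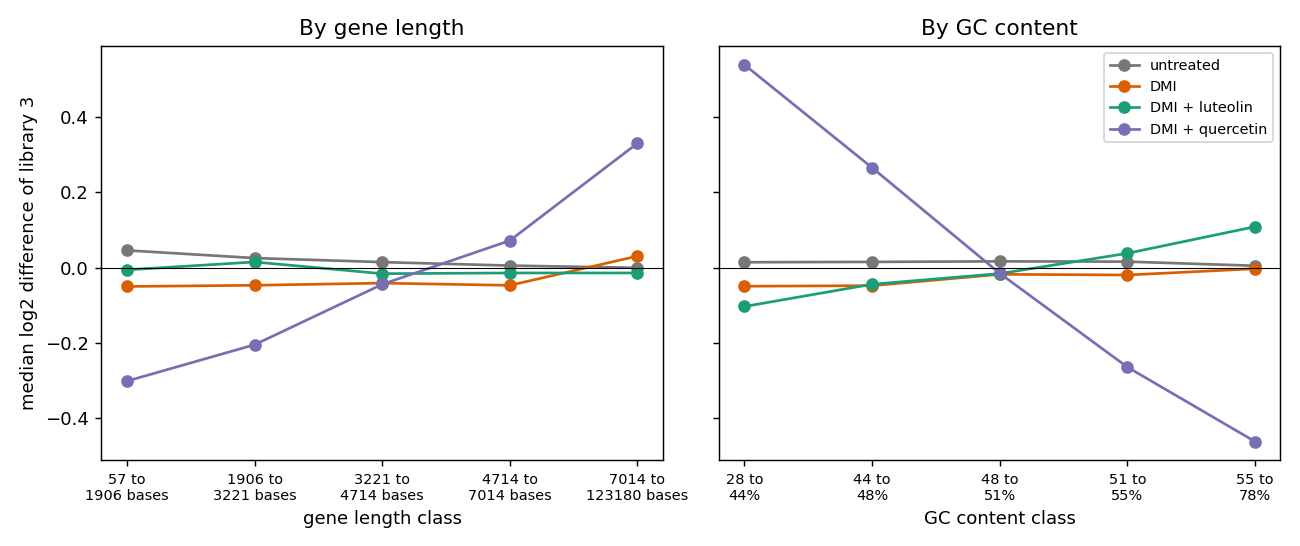
Median log2 difference between library 3 and the mean of libraries 1 and 2 (vertical axis) for genes in 5 classes of gene length (left, bases) and of GC content (right, percent), with 1 line per group. Quercetin library 3 runs from -0.30 in the shortest to 0.33 in the longest genes and from 0.54 at low to -0.46 at high GC content, while the lines of the other groups stay between -0.10 and 0.11.

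Fabp4, a cytosolic fatty acid carrier of adipocytes encoded on chromosome 3 (GRCm38, 10204088 to 10208576, minus strand), showed the weaker adipocyte state of library 3 in each induced group. It had 2958, 3896 and 840 CPM in DMI libraries 1, 2 and 3, 1812, 2076 and 794 CPM with luteolin, and 1197, 1275 and 205 CPM with quercetin. Library 3 was thus 4.08-fold, 2.45-fold and 6.04-fold below the mean of the other libraries of its group. Pparg, the nuclear receptor that commands fat cell formation (chromosome 6, 115360951 to 115490399, plus strand), had 346, 357 and 101 CPM with DMI, 204, 231 and 97.6 CPM with luteolin, and 114, 126 and 60.1 CPM with quercetin. In untreated cells Pparg stood at 22.8, 22.8 and 23.0 CPM and Fabp4 at 0.932, 2.80 and 7.25 CPM, so every induced library 3 stayed above every untreated library for both genes. Both genes are among those that singled out library 3, so these values describe the split and are no check of it. The fitted log2 difference over the 9 libraries was -1.92 (SE 0.23) for Fabp4 and -1.29 (SE 0.14) for Pparg.

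**Figure D2:**
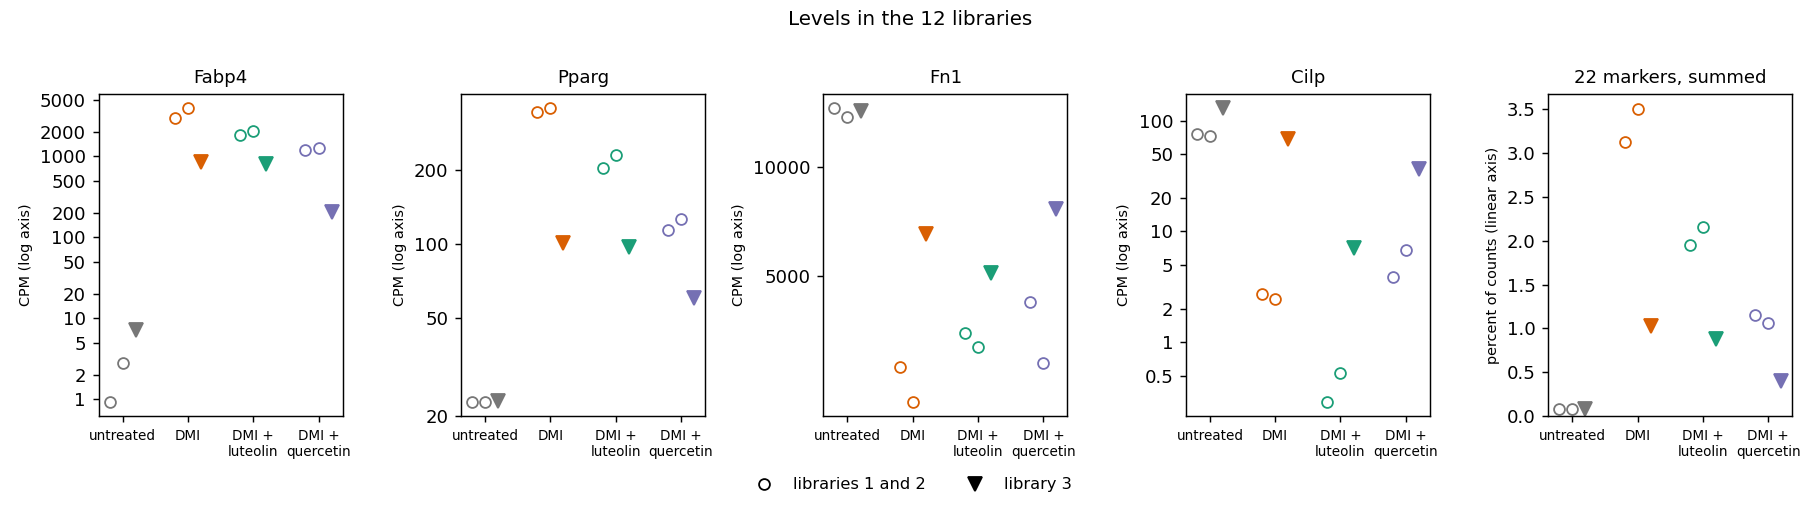
Levels of Fabp4, Pparg, Fn1 and Cilp in CPM (log axes) and the summed share of 22 adipocyte markers in percent of counts (linear axis) in the 12 libraries. Filled triangles mark library 3 and open circles libraries 1 and 2: in each induced group the triangle is lowest for Fabp4, Pparg and the marker sum (1.03% against 3.12% and 3.50% with DMI) and highest for Fn1 and Cilp.

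All 22 mature adipocyte markers of the list were tested, and 21 were lower than both other libraries in every induced group; all of these 21 also reached the 1.5-fold limit. The exception was Lep, the satiety hormone leptin, which had 2.52, 3.9 and 0.677 CPM with DMI and at most 0.295 CPM in any flavonoid library. The median log2 difference of the list was -1.98 in the DMI group, -1.30 with luteolin and -1.92 with quercetin, beside -0.03, -0.01 and -0.01 over all genes tested. In untreated cells, which the rule did not use, the same list had a median of 0.78, from markers that stood near 0 CPM there. Over all genes tested, 2164 (14.9%) were lower in all 3 groups and 2196 (15.1%) higher, whatever the size, and list counts below are to be read beside these shares. The edgeR quasi-likelihood fit of the same contrast passed an adjusted p of 0.05 for 1295 lower genes (8.9%) and 1075 higher genes (7.39%); since that contrast was chosen from these values, the counts are a description. In bulk RNA, fewer adipocytes in the dish and less adipocyte RNA per cell cannot be told apart.

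**Figure D3:**
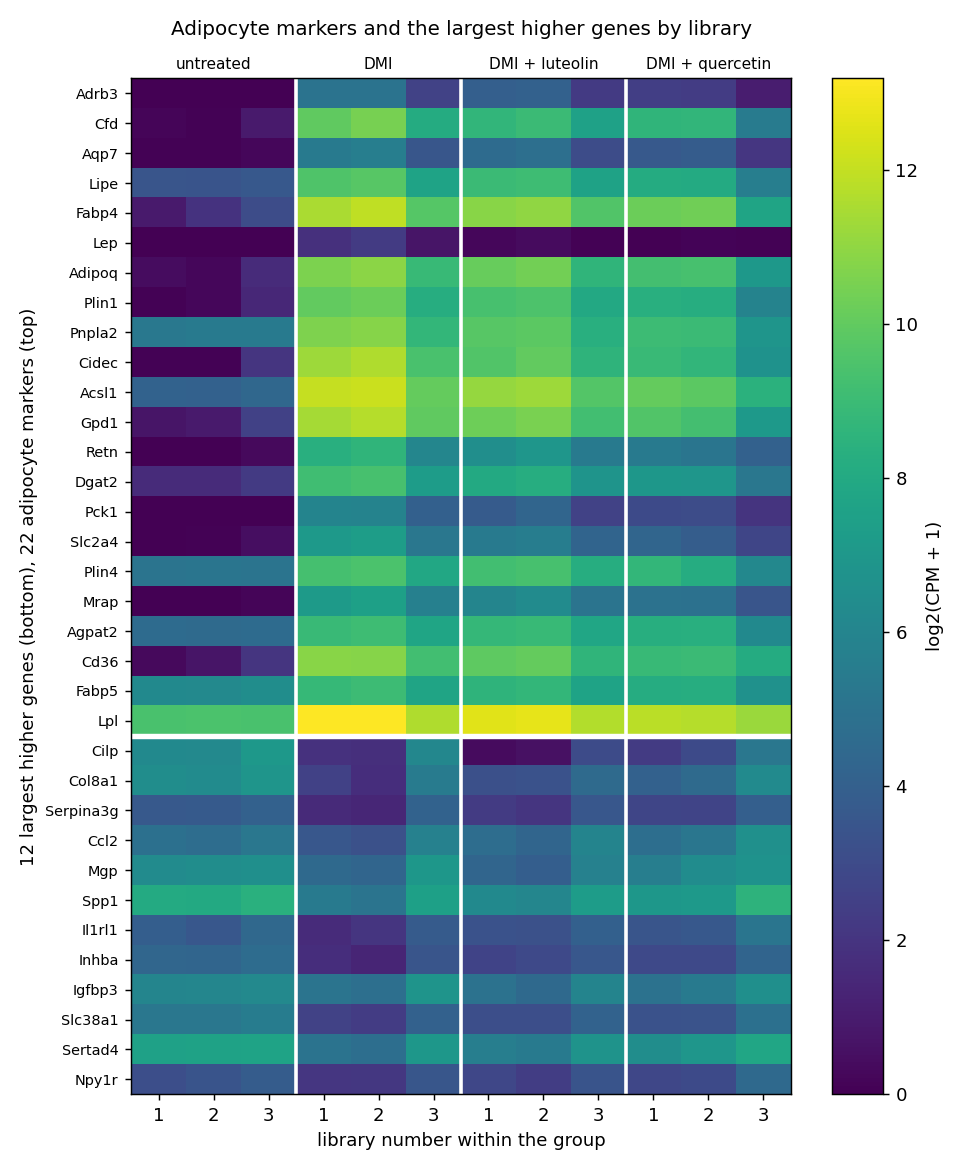
Expression as log2(CPM + 1) of the 22 adipocyte markers (above the white line) and of the 12 largest higher members (below it) in the 12 libraries, in columns by group and library number. Column 3 of each induced group is darker for the markers and brighter for the higher members than columns 1 and 2, and untreated columns are darkest for most markers.

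Adiponectin (Adipoq), a hormone secreted by fat cells, had 1553, 1880 and 472 CPM with DMI, 1132, 1346 and 396 CPM with luteolin and 609, 641 and 131 CPM with quercetin. Plin1, the protein coat of the lipid droplet, had 1034, 1195 and 298 CPM with DMI, 648, 716 and 249 CPM with luteolin and 323, 292 and 58.2 CPM with quercetin. Library 3 was lowest in every induced group for both genes, by 3.64-fold and 3.74-fold with DMI. Lpl, the lipase that frees fatty acids from lipoproteins, had 9114, 9341 and 3172 CPM with DMI, 6295, 6743 and 3293 CPM with luteolin and 3616, 3422 and 2376 CPM with quercetin. Its fold between libraries was 2.91 with DMI and 1.48 with quercetin, the smallest fitted difference of the list (-0.99, against -2.24 for the beta-3 adrenergic receptor Adrb3 at the other end). The insulin-responsive glucose carrier Slc2a4 had 142, 164 and 36.0 CPM with DMI, 40.6, 47.0 and 18.3 CPM with luteolin and 18.8, 13.9 and 5.65 CPM with quercetin. Resistin (Retn), a secreted peptide, stood at 313, 389 and 65.0 CPM with DMI, 89.0, 122 and 40.6 CPM with luteolin and 43.0, 33.5 and 16.0 CPM with quercetin.

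Among 19 adipogenic transcription factors and cofactors, 11 were lower in all 3 groups, 8 of them by at least 1.5-fold, and 1 was higher. Cebpa, the late C/EBP factor, had 435, 516 and 132 CPM with DMI, 279, 301 and 134 CPM with luteolin and 163, 154 and 52.2 CPM with quercetin, so library 3 was lowest in each group. The early factor Cebpb behaved less uniformly, with 158, 184 and 121 CPM with DMI and 170, 183 and 73.5 CPM with quercetin but 145, 146 and 152 CPM with luteolin, where library 3 was the highest. Rxra, the partner of Pparg on DNA, had 245, 270 and 195 CPM with DMI, 245, 250 and 205 CPM with luteolin and 239, 191 and 134 CPM with quercetin, a fitted difference of -0.43 that did not reach the size limit. Klf15 and Nr1h3, named after their values were seen, had the widest gaps beside Mlxipl: Klf15, a glucocorticoid-induced factor, stood at 53, 64.9 and 12.3 CPM with DMI, and Nr1h3, the oxysterol receptor LXR alpha, at 110, 139 and 35.8 CPM. The gene higher in all groups was Zfp423, a factor of committed preadipocytes, at 45.6, 46.9 and 59.8 CPM with DMI; its difference of 0.41 was below the size limit.

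Many genes of lipid storage and release were lower in library 3. Of 13 lipid droplet and lipolysis genes 11 were members, all lower, with a median of -1.37, and the remaining genes Plin3 and Hilpda differed by -0.09 and 0.06. Pnpla2, the lipase that takes the first fatty acid from a triglyceride, had 1594, 1804 and 427 CPM with DMI, 871, 938 and 316 CPM with luteolin and 520, 508 and 115 CPM with quercetin. Cidec, which promotes droplet fusion, had 2459, 3108 and 672 CPM with DMI, 778, 1053 and 383 CPM with luteolin and 493, 414 and 106 CPM with quercetin. Library 3 again held the lowest value of each group for both. In the lipogenesis list 11 of 20 genes were lower in all groups and 3 were higher, with a median of -0.62. Scd1, the desaturase of stored fat, had 12874, 13632 and 4599 CPM with DMI, 3070, 3882 and 1895 CPM with luteolin and 2002, 1684 and 1290 CPM with quercetin. Fasn, the fatty acid synthase, had 2654, 2785 and 1293 CPM with DMI and 1195, 1344 and 843 CPM with luteolin, whereas with quercetin library 3 (703 CPM) lay between 905 and 571 CPM. Fasn was not a member. The elongase Elovl6, named after its values were seen, went the other way, with 32.8, 28.2 and 60.7 CPM with DMI and 36.8, 33.3 and 92.7 CPM with quercetin.

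The nuclear genes of mitochondrial oxidation moved together at a smaller size than the adipocyte markers. All 17 genes of pyruvate entry and the citric acid cycle were lower in all 3 groups (16 members, median -0.82), as were 24 of 25 nuclear genes of oxidative phosphorylation (19 members, median -0.71), 15 of 19 of fatty acid oxidation (15 members, median -0.85) and 15 of 16 of branched-chain amino acid breakdown (14 members, median -0.97). Citrate synthase (Cs), the entry enzyme of the cycle, had 868, 935 and 372 CPM with DMI, 569, 633 and 341 CPM with luteolin and 382, 376 and 201 CPM with quercetin. Acadm, the medium-chain acyl-CoA dehydrogenase, had 333, 374 and 141 CPM with DMI, 218, 231 and 137 CPM with luteolin and 172, 195 and 78.5 CPM with quercetin. Bcat2, which takes the amino group from branched-chain amino acids, had 413, 507 and 124 CPM with DMI, 191, 214 and 93.2 CPM with luteolin and 135, 134 and 42.7 CPM with quercetin. For these 3 enzymes library 3 lay below both others in every induced group, and the nearest value of another library was more than 1.5 times as high.

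Genes encoded on the mitochondrial genome did not follow the nuclear ones. None of the 14 tested was lower or higher in all 3 groups. Their median difference was -0.69 with DMI and -0.76 with luteolin but 0.56 with quercetin, and 12 of the 14 were called for a difference between groups, where 20.4% of all genes were. Each group has 1 library 3, and the spread in that fit comes from libraries 1 and 2 alone (3 residual degrees of freedom), so the calls compare these libraries and not the treatments. Cytochrome b (mt-Cytb) had 9453, 9045 and 4963 CPM with DMI, 7364, 7875 and 4793 CPM with luteolin and 5453, 6752 and 7611 CPM with quercetin. Library 3 was the lowest of its group in the first 2 groups and the highest with quercetin. Of the trends of quercetin library 3 given above, the higher values at low GC content run with this reversal (mt-Cytb has 39.1% GC). The lower values of short genes run against it, since the median length of the 14 genes was 956 bases. With the length trend of each library removed 0 of the 14 were lower in all 3 groups, and with length and GC trends removed 3 were. The cause of the reversal was not tested.

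**Figure D4:**
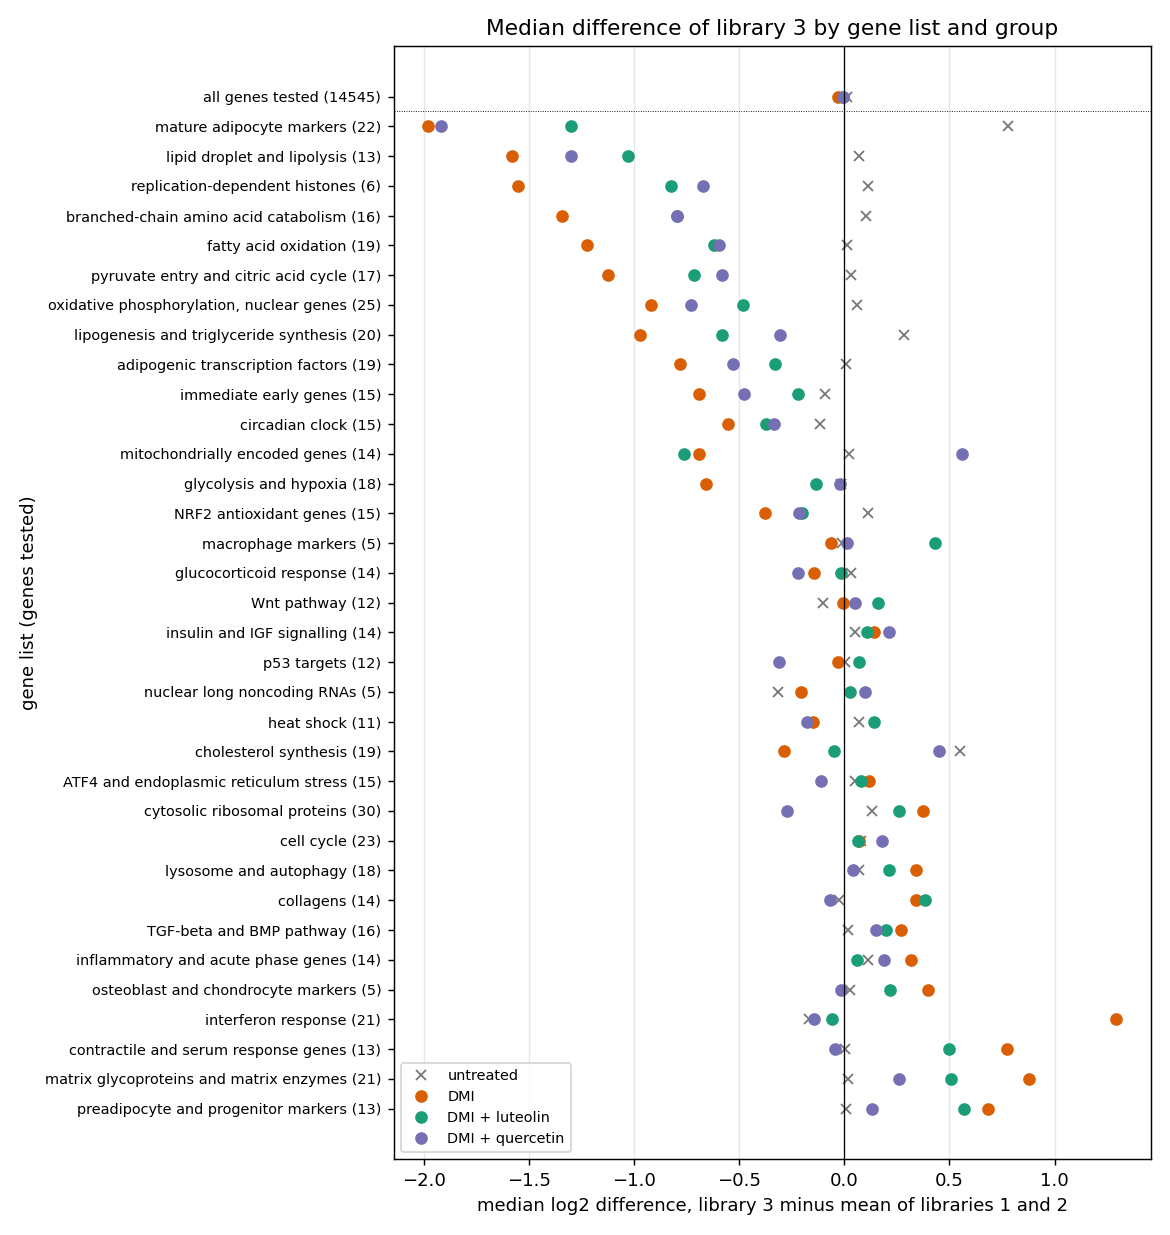
Median log2 difference between library 3 and the mean of libraries 1 and 2 (horizontal axis) for each gene list with at least 5 genes tested, by group, with the number of genes tested in brackets. Adipocyte, lipid and nuclear mitochondrial lists lie left of 0 in the 3 induced groups and near or right of 0 in untreated cells (0.78 for the adipocyte markers); mitochondrially encoded genes and interferon response genes differ between induced groups.

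The 12 largest lower members with a mean of at least 5 CPM were Orm2, Car3, Orm3, Adrb3, Orm1, Grhl1, Ly6h, Cfd, Ffar2, Itih4, Aqp7 and Lipe, with fitted log2 differences from -2.67 to -1.93. Carbonic anhydrase 3 (Car3), one of the most abundant soluble proteins of fat cells, had 155, 183 and 22.1 CPM with DMI, 43.5, 59.8 and 9.92 CPM with luteolin and 8.95, 10.1 and 2.27 CPM with quercetin. It was 7.65-fold, 5.21-fold and 4.2-fold lower in library 3. The orosomucoid genes encode acute phase plasma proteins that adipocytes also secrete, lie side by side on chromosome 4 and are close copies, so their reads may be shared between them. Orm1 had 96.4, 106 and 21.9 CPM with DMI, 43.3, 48.6 and 12.8 CPM with luteolin and 20.4, 26.8 and 3.68 CPM with quercetin. Complement factor D (Cfd, adipsin), a serine protease secreted by fat, had 1009, 1439 and 276 CPM with DMI, 415, 513 and 186 CPM with luteolin and 392, 414 and 44.4 CPM with quercetin. Aqp7 releases glycerol, Lipe is the hormone-sensitive lipase and Ffar2 senses short-chain fatty acids; in each of these genes every library 3 was the lowest of its group. At the size limit itself, the last lower members were Cox7b and Ccne1 (each at -0.59) and the first left out were C920021L13Rik and Gsdme (each at -0.58). Among higher genes, Mmp2 and Gfod1 (each 0.59) were just inside and Pcdhb7 and Setbp1 (each 0.58) just outside.

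The 12 largest higher members were Cilp, Col8a1, Serpina3g, Ccl2, Mgp, Spp1, Il1rl1, Inhba, Igfbp3, Slc38a1, Sertad4 and Npy1r, with differences from 3.84 to 1.51. Cilp, a matrix protein of cartilage and fibroblasts that binds TGF-beta, had 2.71, 2.47 and 67.7 CPM with DMI, 0.291, 0.531 and 7.05 CPM with luteolin and 3.87, 6.82 and 36.3 CPM with quercetin. Untreated cells held 76.5, 73.3 and 129 CPM, so DMI library 3 came closest to the untreated level. Col8a1, a short-chain collagen, had 4.91, 2.33 and 43.8 CPM with DMI, 8.44, 8.91 and 22.3 CPM with luteolin and 16.0, 22.2 and 79.2 CPM with quercetin. Ccl2, a chemokine that attracts monocytes, had 10.8, 8.77 and 55.4 CPM with DMI, 25.6, 18.4 and 60.9 CPM with luteolin and 26.3, 34.7 and 95.8 CPM with quercetin; untreated cells held 28.3, 25.4 and 36.8 CPM. In all 3 induced groups library 3 was thus above every untreated library for Ccl2. Spp1 (osteopontin), a secreted matrix phosphoprotein, had 42.5, 32.7 and 182 CPM with DMI, 75.6, 66.4 and 154 CPM with luteolin and 124, 142 and 363 CPM with quercetin. Igfbp3, which binds insulin-like growth factors, had 32.9, 26.9 and 113 CPM with DMI, 30.4, 21.9 and 61.6 CPM with luteolin and 29.9, 42.3 and 93.5 CPM with quercetin.

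Some matrix and fibroblast genes were higher in library 3. Of 21 matrix glycoproteins and matrix enzymes 12 were higher in all 3 groups, 8 of them members, and none was lower (median 0.49). The list median was 0.88 with DMI, 0.51 with luteolin and 0.26 with quercetin. Fibronectin (Fn1) had 2798, 2248 and 6542 CPM with DMI, 3488, 3176 and 5080 CPM with luteolin and 4236, 2879 and 7639 CPM with quercetin, against 13727 to 14502 CPM in untreated cells. Biglycan (Bgn), a small proteoglycan, had 2869, 2388 and 5541 CPM with DMI, 3395, 3046 and 4565 CPM with luteolin and 3786, 4315 and 6580 CPM with quercetin. Each library 3 lay between the other induced libraries of its group and the untreated cells for both genes. The preadipocyte and progenitor list had 7 of 13 genes higher and none lower (3 members, median 0.56). Its median was 0.68 with DMI, 0.57 with luteolin and 0.13 with quercetin. Dlk1, which holds preadipocytes back from differentiating, had 1739, 1562 and 3120 CPM with DMI, 1209, 995 and 2039 CPM with luteolin and 1996, 2352 and 3321 CPM with quercetin. Pdgfra, a receptor of adipose progenitors, differed by 0.17 and was no member.

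Collagens were divided, with 6 of 14 higher and 2 lower in all groups. The list median was 0.34 with DMI, 0.38 with luteolin and -0.07 with quercetin. Col1a1 had 6724, 6530 and 10454 CPM with DMI, 5358, 5052 and 7351 CPM with luteolin and 6527, 6196 and 8048 CPM with quercetin, a fitted difference of 0.52 just below the size limit. Col15a1, a basement membrane collagen named after its values were seen, went with the adipocyte genes, at 303, 330 and 96.8 CPM with DMI, 191, 207 and 92.7 CPM with luteolin and 80.4, 61.8 and 22.2 CPM with quercetin. Of 13 contractile and serum response genes 6 were higher and none lower (median 0.41). The list median was 0.78 with DMI and 0.50 with luteolin but -0.04 with quercetin. Alpha-actinin 1 (Actn1) had 121, 109 and 240 CPM with DMI, 186, 164 and 246 CPM with luteolin and 231, 204 and 304 CPM with quercetin. Tpm1, a tropomyosin, had 189, 186 and 363 CPM with DMI and 264, 248 and 376 CPM with luteolin. With quercetin it had 334, 389 and 269 CPM, where library 3 was the lowest. Of 16 TGF-beta and BMP pathway genes 6 were higher and 3 lower; the receptor Tgfbr2 had 175, 154 and 293 CPM with DMI, 178, 171 and 263 CPM with luteolin and 265, 251 and 391 CPM with quercetin. Of 14 insulin and IGF signalling genes 4 were higher, among them Igfbp3 and Igf1 (the latter named after its values were seen), and 1 was lower.

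Regulatory lists were also examined. Of 15 immediate early genes 8 were lower in all 3 groups and 1 was higher (median -0.44); Fos, a member named after its values were seen, had 8.05, 9.39 and 2.03 CPM with DMI, 6.40, 4.90 and 1.73 CPM with luteolin and 6.17, 5.86 and 1.78 CPM with quercetin. Egr1, a serum-induced factor, had 127, 133 and 74.2 CPM with DMI, 89.2, 77.0 and 64.8 CPM with luteolin and 136, 128 and 86.0 CPM with quercetin, and untreated library 3 (79.5 CPM) was also below untreated libraries 1 and 2 (136 and 135 CPM). Circadian clock genes were mixed, with 7 of 15 lower and 4 higher. The output factor Tef had 152, 152 and 103 CPM with DMI, 142, 145 and 108 CPM with luteolin and 132, 135 and 86.0 CPM with quercetin, and the activator Arntl, named after its values were seen, was higher in library 3 of every induced group, at 19.9, 21.9 and 23.4 CPM with DMI, 17.8, 20.8 and 26.0 CPM with luteolin and 17.4, 23.8 and 38.8 CPM with quercetin.

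Beside the 14.9% lower and 15.1% higher over all genes, other lists had these counts in all 3 groups. Among cytosolic ribosomal proteins 4 of 30 were higher and none lower, with medians of 0.37 with DMI, 0.26 with luteolin and -0.27 with quercetin. Cell cycle genes had 3 of 23 lower and 7 higher, with Ccnd1, the G1 cyclin, at 48.3, 39.9 and 126 CPM with DMI, 122, 113 and 193 CPM with luteolin and 129, 112 and 178 CPM with quercetin. Lysosome and autophagy genes had 3 of 18 lower and 7 higher, NRF2 antioxidant genes 7 of 15 lower and 1 higher, glycolysis and hypoxia genes 6 of 18 lower and 1 higher, and cholesterol synthesis genes 2 of 19 lower and 5 higher. Heat shock genes had 1 of 11 lower, which was the mitochondrial chaperone Hspd1, a nuclear gene with 880, 941 and 449 CPM with DMI. Of 12 p53 targets 3 were lower and 2 higher, and of 15 genes of the ATF4 and endoplasmic reticulum stress response 2 were lower and 2 higher. Of the lists for other cell types, the macrophage list summed in the induced libraries to between 9.30 and 17.1 CPM, the endothelial list to between 0.944 and 2.76 CPM and the epithelial list to between 0.123 and 1.99 CPM. The muscle list was carried by desmin (Des), at 25.6, 25.9 and 8.43 CPM with DMI, which was lower in library 3 of all groups. The osteoblast and chondrocyte list, which holds Spp1, summed to 128, 115 and 308 CPM with DMI, 193, 183 and 306 CPM with luteolin and 271, 281 and 513 CPM with quercetin, against 413 to 495 CPM in untreated cells. Its sum was the highest of the group in each induced library 3, and its part in the differences was not tested.

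Interferon response genes had their widest difference in the DMI group. Their median difference was 1.29 with DMI, -0.06 with luteolin and -0.14 with quercetin, and 18 of 21 were called for a difference between groups against 2970 of all genes (20.4%; 5074 at an unadjusted p below 0.05). Bst2, a membrane protein that tethers budding virus, had 96.5, 75.8 and 283 CPM with DMI, 104, 88.1 and 135 CPM with luteolin and 158, 188 and 102 CPM with quercetin. Stat2, a carrier of the interferon signal, had 91.9, 65.6 and 175 CPM with DMI, 96.3, 113 and 106 CPM with luteolin and 125, 110 and 105 CPM with quercetin. Untreated cells held 545 to 570 CPM of Bst2 and 246 to 273 CPM of Stat2, above all induced libraries. For Bst2, library 3 was the highest of its group with DMI and with luteolin and the lowest with quercetin; for Stat2 it was the highest with DMI alone. The list had 2 genes, Ddx58 and Ifit2 (the latter named after its values were seen), that were higher in library 3 of all 3 groups.

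Across the genes with a mean of at least 5 CPM, the library 3 differences of the DMI and luteolin groups, which share no library, had a Pearson r of 0.809. The quercetin differences had an r of 0.395 with those of DMI and 0.238 with those of luteolin, and the untreated differences had an r between -0.0372 and 0.0269 with the 3 induced ones. These are correlations across genes, which are not independent replicates. Library 3 was singled out by weaker adipocyte genes in all 3 induced groups, so part of the correlation between them comes with that choice. In DMI and luteolin, 1240 genes (8.53%) were below both other libraries while quercetin library 3 was above both, and 1586 (10.9%) showed the opposite pattern. The median size of the library 3 difference was 0.33 with DMI, 0.23 with luteolin and 0.45 with quercetin on the log2 scale, and 0.12 in untreated cells. Libraries 1 and 2 differed from each other by a median of 0.15, 0.11, 0.22 and 0.10 in the same order.

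**Figure D5:**
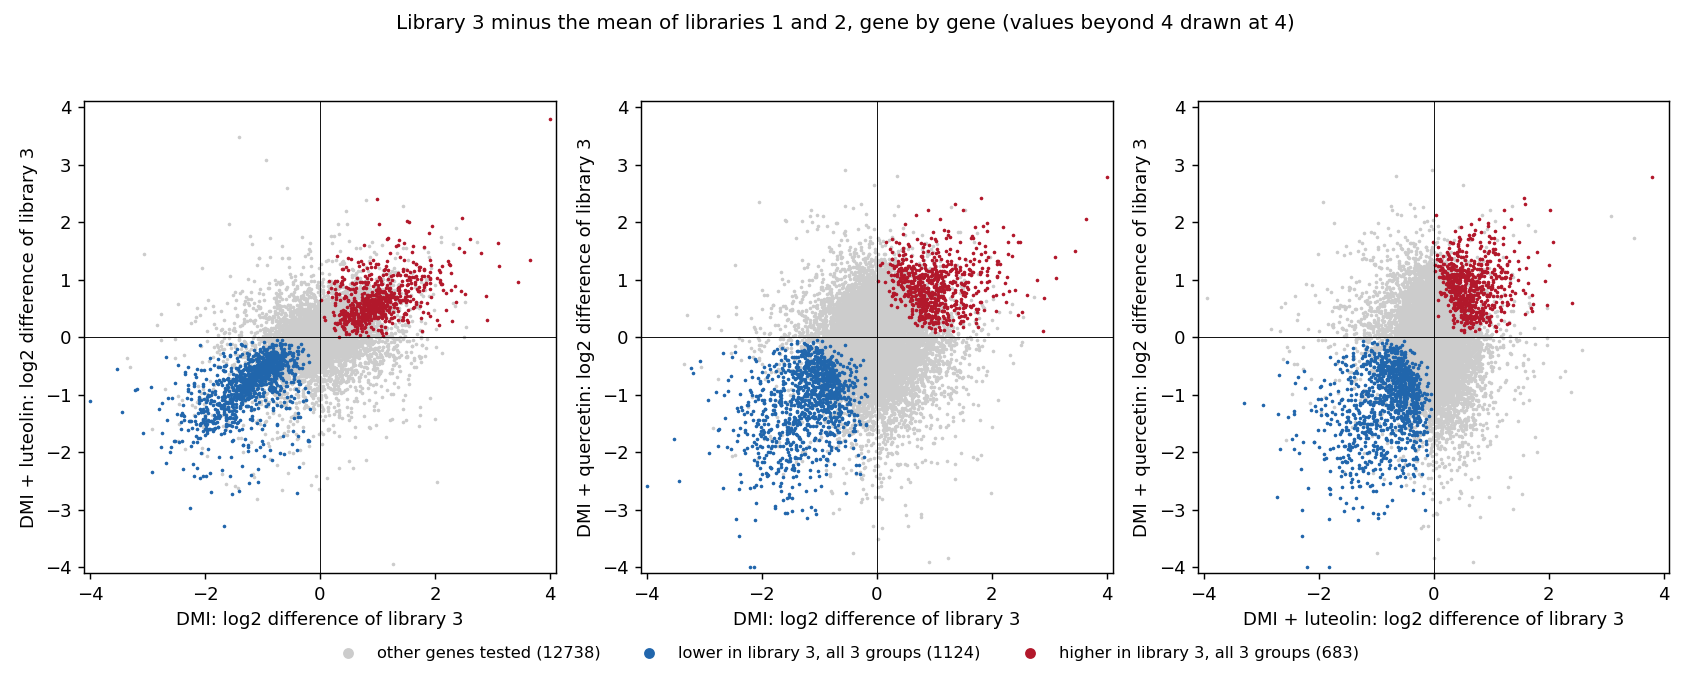
Log2 difference between library 3 and the mean of libraries 1 and 2 for each of 14545 genes, for the 3 pairs of induced groups, with values beyond 4 drawn at 4. Blue points are the 1124 lower and red points the 683 higher members; the cloud follows the diagonal most closely between DMI and luteolin (r = 0.809 over genes at 5 CPM or more), and the members fill opposite corners because the rule placed them there.

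Untreated library 3 was not used by the rule. Its median difference from untreated libraries 1 and 2 was 0.01 over the 1124 lower members, 507 of which were lower there, and 0.09 over the 683 higher members, 214 of which were lower, beside 6710 of 14545 genes lower over all. All 12 of the largest higher members were above both other untreated libraries, with differences from 0.08 for Sertad4 to 0.78 for Cilp. The share of all genes above both was not counted. The members were then placed against the untreated libraries. Their place below or above both other libraries of the group comes from the rule. Only the position against untreated cells is added, and it was not counted over all genes. In DMI library 3, 891 of the 1124 lower members (79.3%) were below both other DMI libraries and above all 3 untreated libraries, and 80 were below all untreated libraries. With luteolin the first number was 880 (78.3%), and with quercetin it was 525 (46.7%), with 358 below all untreated libraries. Of the 683 higher members, 453 lay below all untreated libraries and above both other libraries in DMI library 3, 465 in luteolin library 3 and 224 in quercetin library 3. Those above all untreated libraries were 97, 102 and 345, so with quercetin more higher members lay beyond the untreated level than short of it. In the comparison of DMI with untreated cells over all 12 libraries, which shares the DMI libraries with the rule, 843 of the lower members were called higher and 1 lower, where 14.7% of all genes tested were called higher and 12.4% lower. Of the higher members, 314 were called lower and 4 higher. The median log2 change on induction was 1.63 for lower members and -0.90 for higher members.

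The flavonoid groups were compared with DMI separately within libraries 1 and 2 and within library 3, where each group has 1 library and no test is possible. For Pparg the log2 difference between luteolin and DMI was -0.69 in libraries 1 and 2 and -0.05 in library 3. For Fabp4 the differences were -0.81 and -0.08, and for Lpl -0.50 and 0.05. Other genes kept a wider difference in library 3, with -1.94 and -1.28 for Scd1, -1.79 and -0.96 for Slc2a4 and -1.61 and -0.81 for Cidec. The 22 adipocyte markers had a median difference between luteolin and DMI of -0.89 in libraries 1 and 2, with 22 below 0, and of -0.45 in library 3, with 19 below 0. For quercetin these medians were -1.86 and -1.94, with 22 markers below 0 both times. Over the 1124 lower members the luteolin medians were -0.46 and -0.07 and the quercetin medians -0.85 and -0.70. Over all genes tested they were -0.02 and 0.01 for luteolin and -0.02 and -0.0045 for quercetin. The rule chose the members by differences between these same libraries, so the member medians describe the split and are no check of it. Both flavonoid comparisons use the same DMI libraries. The groups themselves overlapped once library 3 was included. DMI library 3 was below both luteolin libraries 1 and 2 for 20 of the 22 markers and above both for 1. Against quercetin libraries 1 and 2 it was below both for 10 and above both for 11. Weaker adipocyte genes singled out library 3, and the same counts were not made over all genes.

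Over all 3 libraries a group, no lower or higher member was called for luteolin against DMI, where the edgeR test called none of 14855 genes higher (0%) and 3 lower (0.0202%). At an unadjusted p below 0.05 there were 336 higher and 568 lower genes; DESeq2 called 48 genes, and edgeR 25 with the library number as a block. The median change of the lower members was -0.40. For quercetin against DMI, 55 of the 1124 lower members were called lower, beside 0.848% of all genes called lower and 0.162% called higher, with a median change of -0.87. The 150 quercetin calls became 1002 with DESeq2 and 1395 with the block, and between 0 and 2646 when 1 library was left out, the highest without DMI library 3. When a term for library 3 of the induced groups was added to the fit, 251 genes were called for luteolin and 2600 for quercetin, and 6294 in place of 4024 for DMI against untreated cells. All 3 luteolin calls, all 150 quercetin calls and 4021 of the 4024 DMI calls of the fit without the term were among them. The term was chosen on these same libraries and removes their spread by construction, so its calls are a description of how much of the spread it took up. Of 16 panel genes, the number called went from 0 to 7 for luteolin and from 6 to 14 for quercetin. The luteolin change of Scd1 was -1.81 (SE 0.394, adjusted p 0.364 by edgeR) without the term and -1.74 (SE 0.235, adjusted p 0.00372) with it. For Pparg it was -0.59 (SE 0.425, adjusted p 0.943) and -0.50 (SE 0.141, adjusted p 0.107). The quercetin change of Pparg was -1.42 (SE 0.432, adjusted p 0.106) without the term and -1.30 (SE 0.144, adjusted p 5.59e-05) with it. For these genes the sizes moved less than the standard errors did.

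The members shared features of length and composition that the rule did not use. The 1124 lower members had a median length of 3055 bases and a median GC content of 52.4%, and the 683 higher members 4925 bases and 46.9%; the median length over all genes tested was 3917 bases. These are also the directions in which quercetin library 3 differed, and their part in the choice of members was not tested beyond the alternative without length and GC trends.

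RefSeq (GRCm38.p6) start sites were matched by symbol for 783 lower members, 454 higher members and 10173 of the genes tested, and the 250 bases before each start were searched on both strands. The direct repeat of AGGNCA with 1 base (N) between the copies, the form that Pparg and Rxra bind as a pair, was in 8 lower (1.02%), no higher (0%) and 20 of all windows (0.197%). The single site AGGTCA was in 15.6%, 8.37% and 10.4%, and such a site can lie inside the repeat. The C/EBP core TTGCNNAA was in 9.2%, 7.27% and 7.25%, and the TATA box TATAAA in 7.54%, 14.1% and 6.38%. The AP-1 site TGANTCA was in 6.26%, 6.61% and 4.37%, and the CArG box, the serum response element, in 1.66%, 2.2% and 1.24%. A match is a run of letters and no evidence of binding. The 8 lower members with the repeat are shown because no higher member had it, with the repeat in capitals and up to 20 bases on each side, read 5′ to 3′ on the strand of the gene.
Ap1g2, chr14:55106650-55106702, minus strand: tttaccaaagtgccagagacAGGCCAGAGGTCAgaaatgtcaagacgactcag
Ccl6, chr11:83593143-83593195, minus strand: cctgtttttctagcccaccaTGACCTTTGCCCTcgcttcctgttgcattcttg
Dcst2, chr3:89365172-89365224, plus strand: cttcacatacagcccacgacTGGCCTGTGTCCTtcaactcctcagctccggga
Gdf15, chr8:70632479-70632531, minus strand: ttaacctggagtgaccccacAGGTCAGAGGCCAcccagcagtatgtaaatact
Lctl, chr9:64117089-64117141, plus strand: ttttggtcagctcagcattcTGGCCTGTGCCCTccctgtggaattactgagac
Pdzk1, chr3:96829988-96830040, plus strand: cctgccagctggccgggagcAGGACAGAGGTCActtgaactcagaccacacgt
Rbks, chr5:31697611-31697659, minus strand: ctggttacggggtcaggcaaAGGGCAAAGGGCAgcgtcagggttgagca
Slc13a4, chr6:35308182-35308234, minus strand: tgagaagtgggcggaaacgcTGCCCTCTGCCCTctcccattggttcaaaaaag
Of these, Slc13a4, a sulfate carrier, had a fitted difference of -1.71, Lctl, a relative of the klotho co-receptors, -1.86, and Pdzk1, a scaffold for membrane carriers, -1.48. The others lay between -1.10 for Rbks, the ribokinase, and -0.68 for Dcst2. Among the 12 largest lower members 8 had a window, and the C/EBP core (capitals) was in those of Orm2, Orm3 and Ffar2; the first 2 are near copies of each other.
Ffar2, chr7:30823822-30823869, minus strand: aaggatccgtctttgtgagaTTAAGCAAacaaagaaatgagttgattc
Orm2, chr4:63362309-63362356, plus strand: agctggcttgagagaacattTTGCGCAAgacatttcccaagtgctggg
Orm3, chr4:63356017-63356064, plus strand: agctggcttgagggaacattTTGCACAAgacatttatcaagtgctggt
Of the 12 largest higher members 9 had a window, and Inhba, a subunit of activin, and Spp1 held the letters TATAAA (capitals), 91 and 211 bases before the start. The search took a match at any position in the 250 bases, so it does not show that these letters act as a TATA box.
Inhba, chr13:16011740-16011785, plus strand: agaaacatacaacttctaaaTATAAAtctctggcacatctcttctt
Spp1, chr5:104434880-104434925, plus strand: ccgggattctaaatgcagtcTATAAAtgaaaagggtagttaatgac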

How the data were processed

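The authors deposited 1 table of read counts per gene for the 12 libraries, per the file headers. The submitters' processing notes name CASAVA 1.8.2, featureCounts 1.5.0-p3 and the build mm9. No label or header names an aligner. In the table, 98.3% of gene starts and ends match those of GENCODE M21, and positions are printed on its build, GRCm38. Strand use in counting is not stated, so overlapping and antisense genes, and close copies such as Orm1, Orm2 and Orm3, are uncertain.

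Genes passing the edgeR 4.0.16 expression filter (R 4.3.3) were scaled by TMM and fitted by quasi-likelihood with group and library 3 as terms over the 9 induced libraries (5 residual degrees of freedom), with Benjamini-Hochberg adjustment over all 14545 genes. The interaction of both terms was fitted likewise, and groups were compared over all 12 libraries and 14855 genes. Standard errors are the absolute log2 difference over the square root of F. CPM are on the 12-library TMM scale; membership used the 9-library scale. The script was tested on simulated data. The smallest chi-square per gene between libraries of a group was 2.78, so no library was a duplicate.

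The members and the gene lists were chosen with earlier results of these data known. Named genes were a panel of 16, the 12 largest members in each direction with a mean of at least 5 CPM, and the 3 most abundant genes of each list; others are marked in the text, except those at the size limit, those singled out by list counts and those with a motif. Alternatives were other scalings, filters, size limits, limma 3.58.1, DESeq2 1.42.0, a replicate block and leaving out libraries or groups. Luteolin and DMI libraries of one number had correlated deviations (0.261, 0.337 and 0.59), which meets the rule for pairing. For number 2, however, the correlation with the library of the same number was not the highest. Library 3 was singled out in both groups, so part of its correlation comes with that choice. The reported fit has no block, and the blocked count stands beside it.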

Additional observations from a re-analysis of the deposited data

Results flagged for a closer look

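The library 3 difference itself differed between the 3 induced groups for 2970 genes, by the edgeR interaction test at an adjusted p of 0.05. Each group has 1 library 3 and the spread comes only from libraries 1 and 2, so this count compares these libraries and not the treatments, and no p-value is given for single genes, which the same contrast helped to choose. The sizes varied: for Fabp4 the fold between libraries was 2.45 with luteolin and 6.04 with quercetin, while for Lpl it was 2.91 with DMI and 1.48 with quercetin. Cilp was 26.2-fold higher in library 3 with DMI, 17.2-fold with luteolin and 6.79-fold with quercetin. Bst2 was 3.29-fold higher in library 3 with DMI and stood at 0.591 of the other libraries with quercetin. Quercetin library 3 carried the length and GC trends described above, and with those trends removed from every library 1731 genes were called in place of 2970.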

How the results depend on the processing

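No gene named by rule and past the threshold changed sign under other scalings, with trends removed, or with libraries or groups left out. Signs of single genes were not compared under the other alternatives. The balance of calls turned in some alternatives. Library 3 calls went from 1295 lower and 1075 higher to 1832 and 1927 without quercetin library 3. Members went from 1124 and 683 to 2164 and 2196 with no size limit. Calls for quercetin against DMI went from 126 and 24 to 272 and 303 without quercetin library 1. The 2370 genes called for library 3 became 416 without the DMI group, 1428 without the luteolin group and 4597 without the quercetin group, and ranged from 811 to 3759 when 1 library was left out. The lowest came without DMI library 3 and the highest without quercetin library 3, and leaving out DMI library 2 gave 1397. With all 3 library numbers as a replicate block the count was 1867. The 1807 members became 719 at a 2-fold limit and 4360 with no size limit. The 2970 genes that differed between groups became 1731 with length and GC trends removed, an alternative chosen after seeing the data. Calls for DMI against untreated, luteolin against DMI and quercetin against DMI (4024, 3 and 150) became 6294, 251 and 2600 with a term for library 3. Without the low-count filter the flavonoid counts were 363 and 1737, and with DESeq2 48 and 1002. Leaving out 1 library gave 1865 to 5569, 0 to 259 and 0 to 2646, the highest flavonoid counts without DMI library 3. With the library number as a replicate block they were 25 and 1395. Quercetin and DMI libraries of one number had correlated deviations of 0.0682, 0.279 and 0.335, and DMI and untreated libraries of 0.0162, -0.0144 and 0.0215, so these numbers were not taken as pairs. Of 2204 gene values under the alternatives in which signs were compared, 361 moved by more than their error, and of 592 list medians 28 moved. The causes were not tested.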

Other observations

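Genes of several other lists also separated library 3. C3, the central complement protein, which adipocytes make in quantity, had 2899, 3426 and 917 CPM in DMI libraries 1, 2 and 3, 1256, 1491 and 540 CPM with luteolin and 737, 500 and 269 CPM with quercetin, a fitted log2 difference of -1.42. The inflammatory and acute phase list was otherwise divided, with 4 of its 14 genes lower and 4 higher in all 3 groups. Aldoa, a glycolytic aldolase, was a lower member with 2353, 2777 and 1054 CPM with DMI, 1326, 1534 and 969 CPM with luteolin and 1027, 1037 and 449 CPM with quercetin, while the pyruvate kinase Pkm differed by 0.18 and was no member. Replication-dependent histone genes were lower in all groups for 4 of 6 tested (median -1.03); the most abundant was Hist1h4i with 16.5, 17.5 and 6.03 CPM with DMI, 16.2, 14.3 and 8.52 CPM with luteolin and 13.7, 18.6 and 7.55 CPM with quercetin. These transcripts mostly lack a poly(A) tail.

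Cholesterol synthesis did not follow the adipocyte genes. Hmgcs1, which makes the precursor of mevalonate, had 297, 279 and 209 CPM with DMI, 198, 219 and 171 CPM with luteolin and 158, 201 and 294 CPM with quercetin, so library 3 was lowest in 2 induced groups and highest in the other. In untreated cells, library 3 (227 CPM) was also above libraries 1 and 2 (146 and 145 CPM), and the untreated median of the list was 0.55.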
